A study of Mus musculus with 6 samples.

Results

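The genes described here are Mecom, Prdm16, Erg, Fli1, Etv6, Myct1, Mllt3, Hmga2 and Mycn, which encode regulators linked to the self-renewal of hematopoietic stem cells (HSCs). They were chosen by name and were found by gene symbol in the deposited tables, where they made up 9 of 34745 genes.

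HSCs were sorted from adult mouse bone marrow of strain C57BL/6 as LSK CD150+CD34-CD48- cells, where LSK stands for lineage-negative, Sca1-positive and cKit-positive cells, and were examined by bulk RNA-seq. There were 3 WT libraries from mice with floxed Med23 alleles and no Cre, and 3 KO libraries from mice with floxed Med23 alleles and the Mx1-cre transgene. The Mx1 promoter responds to interferon, and the study induced deletion by injecting poly(I:C), a mimic of double-stranded RNA that itself raises interferon. When it was given relative to the sorting of these cells, and whether the WT mice of these libraries received it, is not given in the sources used here, and an effect of Cre alone cannot be told apart from that of the deletion because WT mice lacked it. The comparison asks how the genes differ between HSCs with and without Med23, a subunit of the mediator complex that connects transcription factors with RNA polymerase II.

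Mecom and Prdm16 are related zinc finger proteins of the PRDM family, and loss of either gene depletes HSCs. Erg, Fli1 and Etv6 belong to the ETS family of transcription factors, of which Erg and Fli1 bind many stem cell enhancers together with Gata2, Runx1, Tal1, Lyl1 and Lmo2, the group known as the heptad. Mllt3 reads acylated histones and recruits the super elongation complex and Dot1l, Hmga2 bends DNA and is repressed by let-7 microRNAs, Mycn is a Myc family factor that overlaps in function with Myc in HSCs, and Myct1 encodes a protein named as a Myc target.

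The depth of the WT libraries was 4750410, 8131344 and 3537269 reads on genes, and that of the KO libraries 4760545, 5281232 and 5132601. Values of a group are listed in the order of replicates 1, 2 and 3 throughout. Counts were converted to normalized CPM, that is counts scaled to a common library size after correction of the libraries by the TMM method. The smallest signal treated as detected, 3 counts, came to between 0.369 and 0.848 CPM over the libraries. Every one of the 9 genes was far above it, with Hmga2 the lowest at 33 to 137 counts. Mycn, at 1140 to 4416 counts, was the highest in all libraries but the library labelled WT replicate 3, where Etv6, Fli1 and Erg exceeded it. Because labels do not say whether replicates came from separate mice, p-values measure the spread between these samples, and the floor covers counting error alone.

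Med23 was examined first because it tests the labels. It was present at 47.6, 70.8 and 24.1 normalized CPM across the WT libraries and at 31.6, 29.8 and 36.8 across the KO libraries. The library labelled WT replicate 3 thus lay below all 3 KO libraries, against its label, and the groups overlapped. On the log2 scale the fold change of KO over WT was -0.54 (SE 0.41), with an adjusted p of 0.989 in edgeR's quasi-likelihood test, and it was -0.85 when the library labelled WT replicate 3 was left out and -0.13 when WT replicate 2 was left out. A count over all exons cannot distinguish the deleted ones from the rest. Differences between WT and KO below therefore rest on labels that Med23 does not bear out in 1 of 6 libraries. For each of the 9 genes that passed the test over all genes, the library labelled WT replicate 3 lay with the other WT libraries. Egr1, a transcription factor named after its values were seen, was at 86.3, 72.1 and 102 normalized CPM in WT and at 6.48, 6.01 and 2.83 in KO. The genes that passed were selected with the labels, so where their values lie cannot check the labels. Among them, H19, Myh3, mt-Co2, Acta1 and Actc1 were at or near 0 in every KO library and passed the filter on low counts through WT alone.

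Replicate 3 of both groups also stood apart in sex-linked genes. Xist, expressed from the inactive X chromosome, was at 1489 normalized CPM in the library labelled WT replicate 3 and at 1589 in KO replicate 3, against 1.62 to 20.2 in the others. The Y-linked genes Ddx3y, Eif2s3y and Kdm5d were at 0 in both of these libraries and Uty was at 0.309 and 0. The log2 fold changes of Med23 and of the 9 genes were also computed without replicate 3 of both groups. So were those of the genes given with values from the related lists, apart from Hoxb6.

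None of the 9 genes passed the test at an adjusted p of 0.05, with edgeR, with DESeq2, or under any other alternative that was run. With edgeR, 9 of all 12513 genes tested passed, or 0.0719%, and with DESeq2 120 passed, or 0.959%, so that a count of 0 of 9 is not set apart from either background. All 9 genes passed the filter on low counts. At an unadjusted p under 0.05, 1 of the 9, Mecom, was called, beside 715 of 12513 genes or 5.71%. KO libraries all lay above WT libraries for 1 of 9 genes, again Mecom, beside 6.25% of the genes tested, and all below for 1 of 9, Etv6, beside 6.15%. These shares rest on 1 gene each and say nothing particular about the 9.

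**Figure D1:**
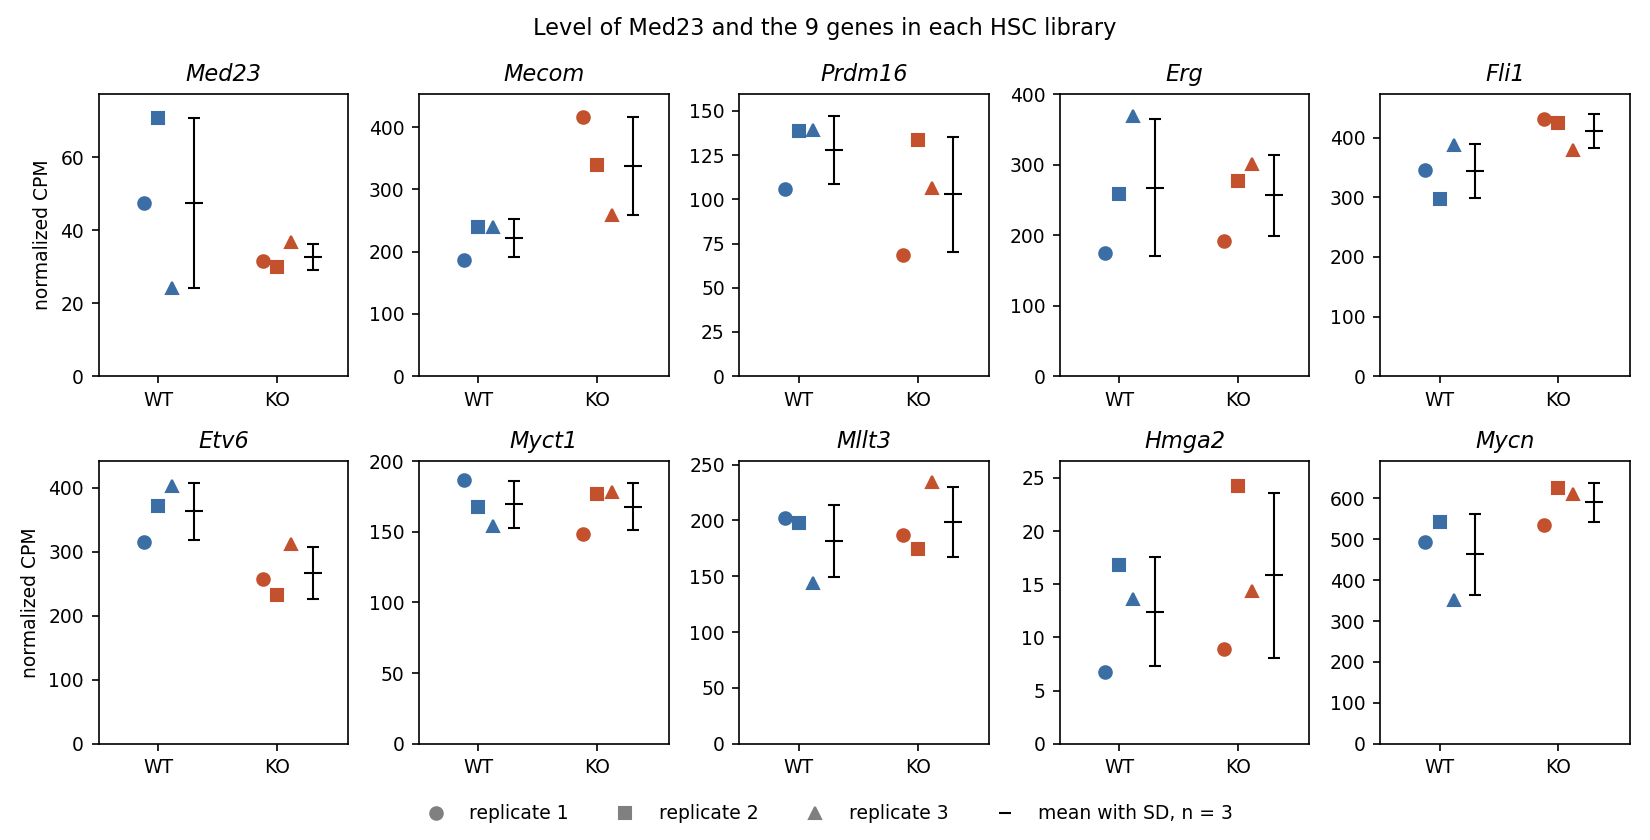
Level of Med23 and of the 9 genes in normalized CPM (linear axes starting at 0) in each WT and KO library. Marker shapes stand for replicates 1 to 3, and the black mark is the mean with the SD, n = 3. Mecom lay higher in all 3 KO libraries and Etv6 lower, and the groups overlapped for the other genes.

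Mecom (ENSMUSG00000027684) lies on chromosome 3 from 29951296 to 30548008 on the minus strand of GRCm38 and encodes a zinc finger repressor and activator of transcription. It was measured at 187, 239 and 240 normalized CPM across the WT libraries and at 416, 339 and 259 across the KO libraries. Every KO library was above every WT library, with KO replicate 1 farthest away and KO replicate 3 close to the library labelled WT replicate 3. The means were 222 ± 30.5 in WT and 338 ± 78.8 in KO (SD, n = 3). The log2 fold change was 0.61 (SE 0.23, 95% confidence interval 0.10 to 1.12), with an adjusted p of 0.766 in edgeR and an exact two-sided permutation p of 0.1, the smallest that 3 against 3 allows. The interval covers single-gene error and was not widened for the number of genes tested. The estimate was 0.67 without the library labelled WT replicate 3, 0.84 without replicate 3 of both groups and 0.43 without KO replicate 1.

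Prdm16 (ENSMUSG00000039410, chromosome 4 from 154316125 to 154636873, minus strand) is the closest relative of Mecom. Its levels were 106, 139 and 139 normalized CPM in WT and 68.3, 133 and 107 in KO. KO replicate 1 was the lowest of all libraries, whereas KO replicates 2 and 3 lay inside the WT range. Between the groups, the log2 fold change was -0.31 (SE 0.28, 95% confidence interval -0.95 to 0.32; adjusted p of 0.989 in edgeR), and -0.09 without KO replicate 1.

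The ratio of Mecom to Prdm16 counts within a library does not depend on how libraries are scaled. It was 1.77, 1.73 and 1.73 across the WT libraries, a mean of 1.74 ± 0.0229 (SD, n = 3), and 6.09, 2.54 and 2.42 across the KO libraries, a mean of 3.69 ± 2.08. The 3 WT libraries, including the library labelled WT replicate 3, were nearly alike in this ratio, and all 3 KO libraries were above them and spread widely. The mean ratio in KO was 2.12 times that in WT, and 1.43 times without KO replicate 1. This ratio was chosen after the values of both genes had been seen, and it is given as a description with no test.

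**Figure D2:**
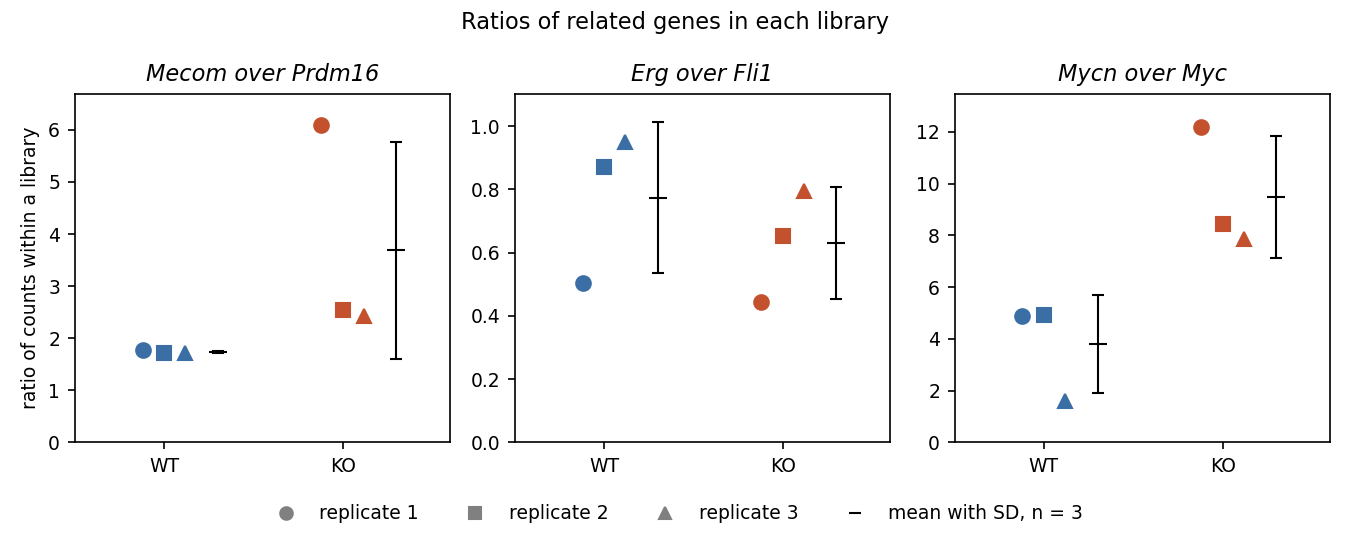
Ratio of the counts of 2 related genes within each library (linear axes starting at 0) for Mecom over Prdm16, Erg over Fli1 and Mycn over Myc. Shapes stand for replicates 1 to 3 and the black mark is the mean with the SD, n = 3. Mecom over Prdm16 lay between 1.73 and 1.77 in WT and between 2.42 and 6.09 in KO.

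The promoters of 4 of these genes are shown to give the sequence before annotated starts: Mecom and Etv6, whose groups did not overlap, Prdm16 as the relative of Mecom, and Myct1 as a promoter with a motif match. Sequences are from RefSeq on GRCm38.p6, run 5′ to 3′ on the strand of the gene and end at the base before the start, or, for Mecom, before an exon annotated in another transcript. They cover chr3:30509823-30510009 (minus strand), chr4:154636874-154637123 (minus strand), chr6:134035450-134035699 (plus strand) and chr10:5593478-5593727 (plus strand), all outside the annotated exons of the gene itself. Exons of other genes were not examined in these stretches. The stretch of Mecom ends 63 bases before its RefSeq start and lies within the span of the gene, which reaches farther upstream, and the RefSeq start of Myct1, at 5593728, precedes the gene start given below. Capitals mark AGATAA, a motif of the GATA type.
Mecom: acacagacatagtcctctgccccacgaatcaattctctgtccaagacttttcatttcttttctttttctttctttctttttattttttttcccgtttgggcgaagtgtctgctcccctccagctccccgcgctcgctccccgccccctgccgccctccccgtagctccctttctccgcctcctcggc
Prdm16: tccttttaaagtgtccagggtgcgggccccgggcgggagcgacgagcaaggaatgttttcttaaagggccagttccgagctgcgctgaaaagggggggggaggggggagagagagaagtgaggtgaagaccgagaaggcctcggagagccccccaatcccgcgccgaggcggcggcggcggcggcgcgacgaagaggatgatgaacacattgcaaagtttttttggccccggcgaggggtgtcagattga
Etv6: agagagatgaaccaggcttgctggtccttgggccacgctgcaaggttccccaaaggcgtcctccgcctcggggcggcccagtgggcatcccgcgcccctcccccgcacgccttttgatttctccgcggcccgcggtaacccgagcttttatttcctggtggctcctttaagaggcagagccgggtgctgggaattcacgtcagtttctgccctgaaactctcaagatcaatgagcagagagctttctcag
Myct1: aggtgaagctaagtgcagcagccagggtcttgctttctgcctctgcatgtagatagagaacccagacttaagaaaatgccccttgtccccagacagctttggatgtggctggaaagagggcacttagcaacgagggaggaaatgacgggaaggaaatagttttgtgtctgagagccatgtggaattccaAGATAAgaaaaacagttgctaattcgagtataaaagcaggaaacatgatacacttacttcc

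Of the 9 genes, 8 had entries in the promoter table, and Fli1 had none. These 8 had 12 windows of 250 bases before a start, with a GC content of 36.0 to 69.2% against a median of 52.4% over all promoters. The ETS-type motif CGGAAG, searched on both strands, occurred in 1 of the 12 windows and in 13.6% of 32851 promoters. That window precedes the second start of Mecom, 496555 bases downstream of the first, with the match beginning 43 bases before the start. All 250 bases of that window lie in annotated exons of Mecom. The motif AGATAA occurred in 2 of the 12 windows, 61 bases before the start of Myct1 and 103 bases before the third start of Erg, and in 9.99% of all promoters. The E-box CACGTG, the motif of Myc and Max, was in none of the 12 and in 6.02% of all promoters, and the AP-1 motif TGACTCA was in none and in 4.46%. A match describes letters in a window, not a bound site. Counts per gene add the transcripts of all starts, so those of the long and the short form of Mecom cannot be told apart.

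Among the ETS members, Erg (ENSMUSG00000040732, chromosome 16 from 95359169 to 95586593, minus strand) was measured at 174, 259 and 369 normalized CPM in WT and at 192, 277 and 302 in KO. The spread within a group exceeded the difference between groups, and replicate 1 was the lowest of each. The difference came to a log2 fold change of -0.06 (SE 0.29, 95% confidence interval -0.70 to 0.59), and its sign reversed under some alternatives, including both log2 pseudocounts of FPKM and leaving out the library labelled WT replicate 3 (0.24).

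Fli1 (ENSMUSG00000016087, chromosome 9 from 32422204 to 32542861, minus strand), the closest relative of Erg, was at 346, 298 and 388 normalized CPM in WT and at 431, 425 and 379 in KO. KO replicates 1 and 2 were above all WT libraries, and KO replicate 3 was just below the library labelled WT replicate 3. The log2 fold change was 0.26 (SE 0.19, 95% confidence interval -0.16 to 0.68; adjusted p of 0.989 in edgeR). Within libraries, the ratio of Erg to Fli1 counts was 0.503, 0.870 and 0.950 in WT and 0.445, 0.651 and 0.796 in KO, and the groups overlapped.

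Etv6 (ENSMUSG00000030199, chromosome 6 from 134035700 to 134270158, plus strand) encodes an ETS repressor required by adult HSCs. It was measured at 315, 371 and 403 normalized CPM in WT and at 258, 232 and 312 in KO. All KO libraries were below all WT libraries, though KO replicate 3 and WT replicate 1 nearly met. The means were 363 ± 44.7 in WT and 267 ± 40.9 in KO (SD, n = 3). Between the groups, the log2 fold change was -0.44 (SE 0.20, 95% confidence interval -0.90 to 0.01), with an adjusted p of 0.899 in edgeR and an exact permutation p of 0.1. It was -0.36 without the library labelled WT replicate 3 and -0.48 without replicate 3 of both groups.

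Myct1 (ENSMUSG00000046916, chromosome 10 from 5593775 to 5606904, plus strand) was the steadiest of the 9 over the 6 libraries, at 187, 168 and 154 normalized CPM in WT and 148, 177 and 178 in KO. The ranges of the groups nearly coincided. Its log2 fold change was -0.01 (SE 0.20), and the 95% confidence interval of -0.47 to 0.44 leaves room for a fold of KO over WT between 0.722 and 1.36. The sign of an estimate so close to 0 reversed in 5 of 18 alternatives.

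Mllt3 (ENSMUSG00000028496, chromosome 4 from 87769925 to 88033364, minus strand) was measured at 202, 198 and 144 normalized CPM in WT and at 187, 174 and 234 in KO. The lowest value was that of the library labelled WT replicate 3 and the highest that of KO replicate 3. The difference came to a log2 fold change of 0.13 (SE 0.22, 95% confidence interval -0.37 to 0.63), and it became -0.13 without replicate 3 of both groups, so its sign rests on those libraries.

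Hmga2 (ENSMUSG00000056758, chromosome 10 from 120361275 to 120476469, minus strand), which is high in fetal and low in adult HSCs, was the weakest of the 9. It had 33, 137 and 44 counts in WT and 44, 133 and 71 in KO, or 6.77, 16.8 and 13.6 normalized CPM against 8.91, 24.2 and 14.4. Replicate 2 was the highest and replicate 1 the lowest in each group. The log2 fold change was 0.35 (SE 0.59), with a 95% confidence interval of -0.96 to 1.66, the widest of the 9, and it was -0.09 without KO replicate 2.

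Mycn (ENSMUSG00000037169, chromosome 12 from 12936093 to 12941914, minus strand) was measured at 494, 543 and 352 normalized CPM in WT and at 536, 625 and 611 in KO. KO replicate 1 fell just below WT replicate 2, and the library labelled WT replicate 3 was the lowest of all. Between the groups, the log2 fold change was 0.35 (SE 0.21, 95% confidence interval -0.11 to 0.81; adjusted p of 0.962 in edgeR), and 0.19 without the library labelled WT replicate 3.

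**Figure D3:**
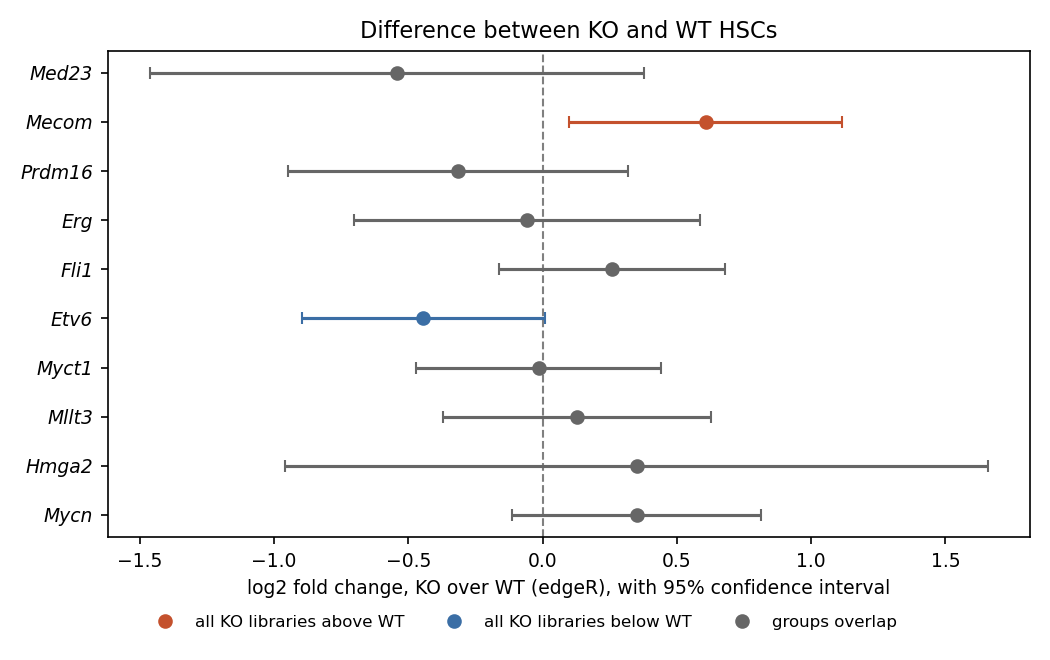
Log2 fold change of KO over WT from edgeR, with its 95% confidence interval, for Med23 and the 9 genes. The interval of Mecom (0.10 to 1.12) excluded 0 before any correction for the number of genes tested, and the intervals of the others included 0.

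As a list, the 9 genes had a median log2 fold change of 0.13, beside -0.01 over all genes tested, with 5 higher and 4 lower estimates in KO. Their direction differed within each family: Mecom and Prdm16 had estimates of opposite sign, as did Fli1 and Etv6. Of the 36 pairs that the 9 genes form, 17 had a positive correlation of log2(CPM + 0.5) over the 6 libraries, with a median r of -0.09. The genes therefore showed no shared rise or fall across these libraries.

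Levels of different genes can be compared only per length, and the deposited FPKM values use a length that needs description. Dividing counts by FPKM gave 1 length per gene, which was within 1% of the summed length of all distinct annotated exons for 73.8% of 18944 genes and for 7 of the 9 genes. It was within 1% of the bases that exons cover for 23.9%. Exon parts shared by several transcripts are counted repeatedly in such a sum. The deposited length of Erg was thus 9156 bases against 3466 bases covered by its exons, that of Mecom 22327 against 12427, a factor of 1.80, and that of Fli1 3493 against 3486. FPKM of a gene can be compared between libraries, where the length cancels, but between genes the deposited length departs from the exon-covered bases by factors of 0.975 for Myct1 to 2.64 for Erg.

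On the scale of normalized CPM per kilobase of exon-covered bases, the order in WT was Mycn, Fli1, Erg, Etv6, Myct1, Mecom, Mllt3, Prdm16 and Hmga2. The mean levels ran from 140.5 ± 30.0 for Mycn through 77.2 ± 28.1 for Erg, 59.6 ± 5.80 for Myct1 and 17.9 ± 2.45 for Mecom to 1.83 ± 0.759 for Hmga2 (SD, n = 3). Neighbours overlapped throughout this order, except that Myct1 lay above Mecom and Prdm16 above Hmga2 without overlap. With the length behind the deposited FPKM, Myct1 moved from the fifth to the third place and Erg from the third to the fifth, and Mllt3 stood sixth above Mecom, with overlap. In KO on exon-covered bases, Mecom was at 27.2 ± 6.34 and did not overlap Mllt3 at 16.6 ± 2.63, whereas on the deposited length the 2 genes overlapped, at 15.1 ± 3.53 and 13.0 ± 2.06. Per kilobase of the longest coding transcript, Mecom lay below Myct1 without overlap in WT, and in KO it stood between Erg and Myct1 and overlapped both. The place of Mecom thus depends on the length used.

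**Figure D4:**
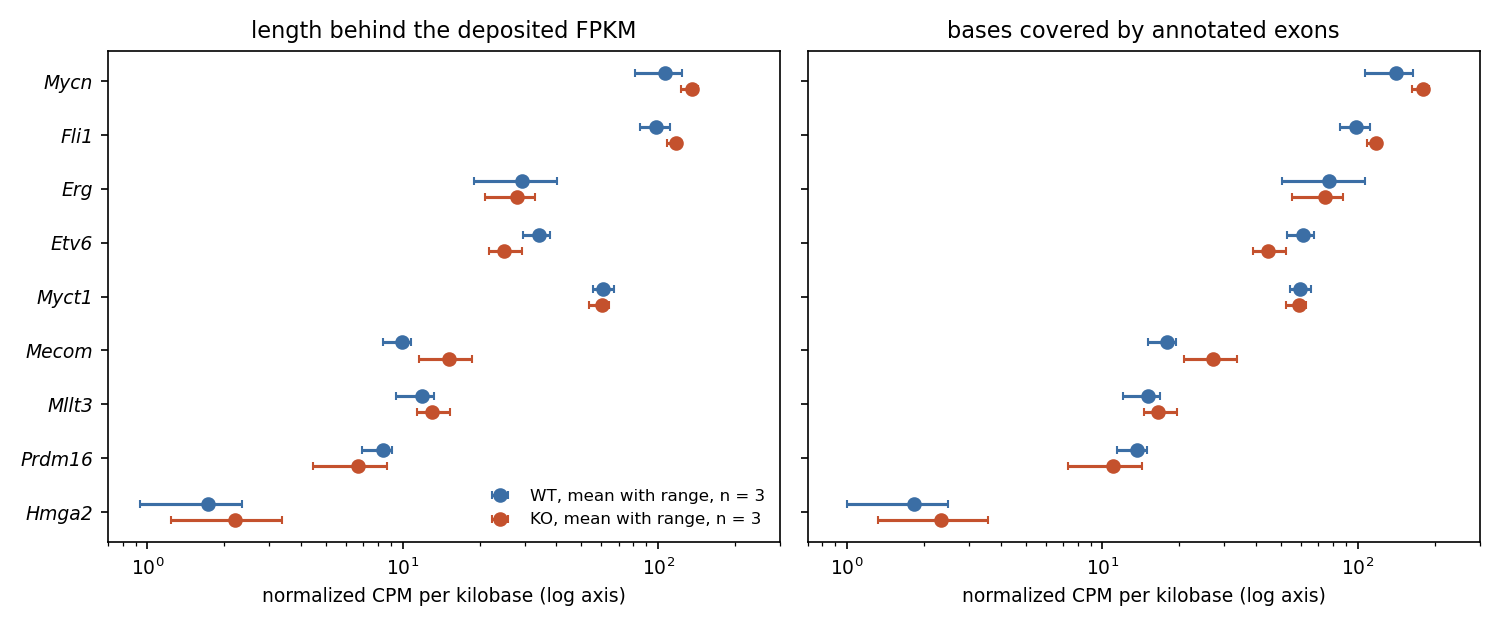
Level of the 9 genes in normalized CPM per kilobase (log axis) in WT and KO, as the mean with the range of 3 libraries, using the length behind the deposited FPKM (left) and the bases covered by annotated exons (right). Erg stood below Myct1 on the left and above it on the right.

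Exons of 4 of the 9 genes share bases with a gene on the opposite strand, and the use of strand in counting is not given in the sources used here. The shared bases were 81 for Mecom and Mecomos, 109 for Prdm16 and B230104I21Rik, 135 for Etv6 and Gm17089 and 140 for Hmga2 and 1700006J14Rik, at most 2.26% of the exon bases of the gene. Mecomos had 41, 75 and 24 counts in WT and 23, 56 and 76 in KO, against 777 to 2054 counts on Mecom. Reads in these stretches cannot be assigned to a strand.

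The genes whose pattern was most like that of 4 members were found among 8420 other genes with a mean of at least 20 normalized CPM, by Pearson r of log2(CPM + 0.5) over 6 libraries. The libraries share depth, scaling and group, so r is a description. For Mecom they were Prkar2b, a regulatory subunit of protein kinase A (r = 0.989), Pogk (0.985) and Stk17b (0.982). Prkar2b was measured at 54.1, 69.6 and 64.0 normalized CPM in WT and at 143.6, 109 and 73.5 in KO, with the same order of the KO libraries as Mecom.

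For Prdm16 they were l7Rn6 (0.986), Pogz (0.979) and Mthfsl (0.976), and all 3 were lowest in KO replicate 1. For Erg they were Emc10 (0.996), Irf2bp2 (0.993) and Pcbp1 (0.989), each lowest in WT replicate 1 and highest in the library labelled WT replicate 3, where Emc10 was at 432 normalized CPM. For Fli1 they were Stx8 (0.985), Itgb3 (0.981) and Zfp113 (0.973). Itgb3, the integrin beta chain of platelets, was at 30.1, 15.9 and 33.4 normalized CPM in WT and at 49.6, 47.7 and 33.6 in KO.

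Related genes were examined in 9 lists of families, partners and targets, which together held 136 genes, of which 101 were tested. None passed the adjusted threshold in edgeR, and 7, or 6.93%, had an unadjusted p under 0.05, beside 5.71% of all genes tested. DESeq2 called 1, Hoxa2, beside 0.959% of all genes. KO libraries were all above WT libraries for 7 of the 101 and all below for 5, or 6.93% and 4.95%, near the shares over all genes tested. Of the 101, 46 had a higher and 55 a lower estimate in KO, with a median log2 fold change of -0.05.

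Of the other ETS genes, 14 of 24 were tested, and 11 had a higher estimate in KO, with a median of 0.14. Elf1 was at 191, 209 and 197 normalized CPM in WT and 242, 227 and 283 in KO, Elf2 at 175, 185 and 164 in WT and 141, 142 and 142 in KO. Both separated the groups, in opposite directions, with log2 fold changes of 0.33 (SE 0.19) and -0.30 (SE 0.20). In all, 2 of the 14, Elf1 and Spic, lay higher in all KO libraries (14.3%) and 1 lower (7.14%), beside 6.25% and 6.15% of all genes tested. Spic, an ETS factor of macrophages, was low, with 6, 35 and 21 counts in WT and 60, 40 and 103 in KO, and its log2 fold change was 1.75 (SE 0.81). It passed the filter on low counts only with the KO libraries.

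Of the other PRDM genes, 8 of 13 were tested, with 6 higher and 2 lower estimates, a median of 0.28 and no gene that separated the groups. All 11 partners and targets of Mecom and Prdm16, among them the corepressors Ctbp1 and Ctbp2 and the histone methyltransferases Ehmt1, Ehmt2 and Suv39h1, were tested. Their median was -0.08, with 4 higher and 7 lower estimates, and the groups overlapped for every one. The heptad partners of Erg and Fli1 had a median of 0.09, and the groups again overlapped for all 5. Over all genes tested, 6.25% lay higher and 6.15% lower in all KO libraries, and a count of 0 in lists this short is not set apart from these shares.

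The list of Mllt3 partners in the super elongation and Dot1l complexes had 17 of 20 genes tested, a median of 0.19, and 11 higher and 6 lower estimates. Men1, or menin, which binds Kmt2a, was at 168, 127 and 159 normalized CPM in WT and 84.9, 90.8 and 125 in KO. Psip1, which binds menin and methylated histones, was at 83.9, 127 and 126 in WT and 141, 144 and 145 in KO. The groups did not overlap for either, with Men1 lower in KO (log2 fold change -0.59, SE 0.25) and Psip1 higher (0.35, SE 0.24), and adjusted p of 0.799 and 0.989 in edgeR. Without WT replicate 1 the estimate of Psip1 was 0.18. Of the 17 genes, 1 lay higher and 1 lower in all KO libraries, or 5.88% each, beside 6.25% and 6.15% of all genes tested.

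Hox and TALE factors, homeodomain proteins that act with these regulators, had 19 of 27 genes tested, with 8 higher and 11 lower estimates and a median of -0.08. Hoxa9 was at 89.8, 130.3 and 117 normalized CPM in WT and 146, 141 and 178 in KO, and Hoxa10 at 72.8, 44.9 and 48.8 in WT and 88.5, 85.9 and 85.0 in KO. Both separated the groups upwards, with log2 fold changes of 0.46 (SE 0.23) and 0.64 (SE 0.28), as did Hoxb6, named after its values were seen, with 11, 13 and 0 counts in WT and 17, 33 and 45 in KO. Hoxb6, at 0 in the library labelled WT replicate 3, passed the filter on low counts only with the KO libraries, where it was high. Counting it, these 3 made up 15.8% of the 19 genes, beside 6.25% of all genes tested, so that share is a description. The 1 gene that lay lower made up 5.26%, beside 6.15%. That gene, Hoxa2, was low in KO, with 52, 40 and 59 counts in WT and 4, 7 and 0 in KO, so that it passed the filter on low counts through WT alone, and a filter at 10 counts in every library left it out. Its log2 fold change was -3.96 (SE 1.19), with an adjusted p of 0.516 in edgeR and 0.0302 in DESeq2, and between 0.0302 and 0.887 over its 17 alternatives.

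Of the Hmga2, Lin28 and let-7 axis, 4 of 10 genes were tested, with 1 higher and 3 lower estimates, a median of -0.28 and overlap in every case. Of the Myc network, 10 of 13 genes were tested, with 1 higher and 9 lower estimates and a median of -0.19. Myc itself was at 101, 110.5 and 219 normalized CPM in WT and 44.0, 73.9 and 77.9 in KO. All KO libraries were below all WT libraries, and the library labelled WT replicate 3 was far above the others. The log2 fold change of Myc was -1.13 (SE 0.36, adjusted p of 0.565 in edgeR), and it was -0.70 without the library labelled WT replicate 3.

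Mlx, a partner of Mondo proteins, was at 35.7, 28.6 and 38.6 normalized CPM in WT and 45.2, 46.2 and 57.9 in KO, with a log2 fold change of 0.54 (SE 0.32). Within libraries, the ratio of Mycn to Myc counts was 4.87, 4.91 and 1.61 in WT and 12.2, 8.45 and 7.84 in KO, with no overlap. The library labelled WT replicate 3 was the lowest in this ratio. As with Mecom and Prdm16, the ratio was chosen after the values had been seen.

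Of 15 Myc target genes of ribosome production and metabolism, all were tested, 14 had a lower and 1 a higher estimate in KO, and the median was -0.31, beside -0.01 over all genes. Gnl3, a nucleolar GTPase, was at 88.6, 101 and 77.9 normalized CPM in WT and 67.5, 56.8 and 57.5 in KO, with a log2 fold change of -0.56 (SE 0.26; adjusted p of 0.905 in edgeR). It was the 1 gene of the list whose groups did not overlap, or 6.67%, beside 6.15% of all genes tested that lay lower in all KO libraries, and none passed the threshold.

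**Figure D5:**
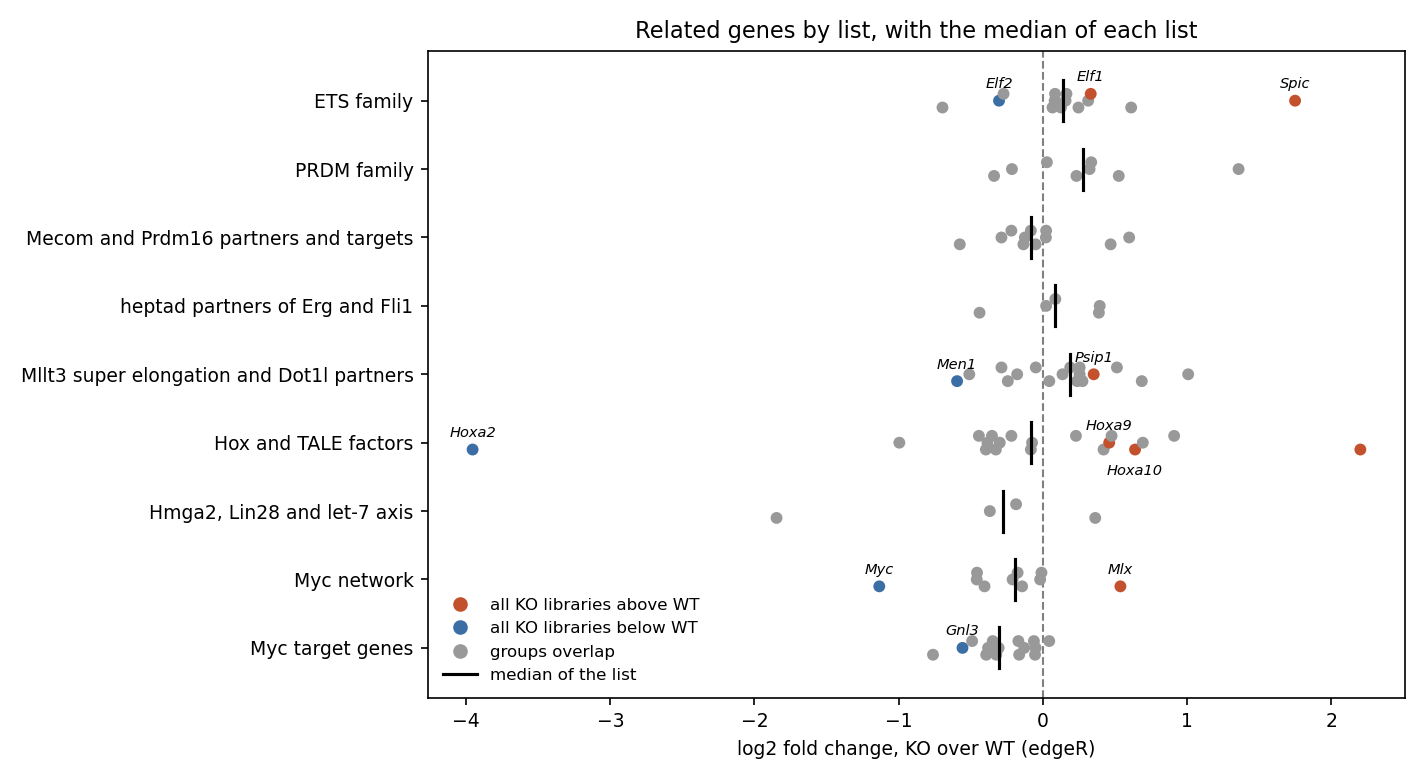
Log2 fold change of KO over WT from edgeR for each tested gene of the 9 lists, with the median of each list as a black line. Orange points mark genes with all KO libraries above WT, blue points all below, and the named genes are those described in the text. The medians lay between -0.31 for Myc target genes and 0.28 for PRDM genes.

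The sorted cells were compared with markers of HSCs and of other cells that share these regulators. Of 12 HSC markers, all were tested and none passed the threshold. Their summed level was 2641, 2958 and 2880 normalized CPM in WT and 2495, 2603 and 2359 in KO, led by Kit, so that all KO libraries lay below all WT libraries. Of the single genes, 4 lay lower in all KO libraries and 1 higher, beside 6.15% and 6.25% of all genes tested. Chosen after their values were seen, the lower ones were Kit, Ly6a, Hlf and Esam, with log2 fold changes of -0.38, -0.78, -0.81 and -0.84, and the higher one was Cd34, whose protein the sort selects against, with 0.40. In bulk samples fewer cells of a type and less RNA per cell cannot be told apart.

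Endothelial cells also express Erg, Fli1, Myct1 and Mecom. Of 14 endothelial markers 8 were tested, and the sum was 1126, 1256 and 1291 normalized CPM in WT and 1186, 1180.0 and 1143 in KO, led by Tie1, which HSCs express as well. Sox17 and Sox7 were at 0 in every library. None of the 8 passed the threshold, 2 lay lower in all KO libraries and none higher, beside 6.15% and 6.25% of all genes tested. These 2, named after their values were seen, were Cldn5, at 11.1, 11.1 and 10.5 in WT and 0 in every KO library (adjusted p of 0.176 in edgeR), so that it passed the filter through WT alone, and Egfl7, at 219, 216.5 and 267 in WT and 157, 140 and 212 in KO. Cdh5, also chosen in that way, was at 0 in WT and at 0, 0.364 and 6.68 in KO.

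The megakaryocyte list, of genes that Fli1 is known to activate in part, summed to 318, 202 and 246 normalized CPM in WT and to 452, 366 and 396 in KO, so that the groups did not overlap. Of its 12 genes 9 were tested and none passed the threshold, and Gp6 and Clec1b were at 0 everywhere. All KO libraries were above all WT libraries for 4 and below for none, beside 6.25% and 6.15% of all genes tested. Itga2b, its most abundant gene, was not among these, at 166, 76.3 and 106 in WT and 259, 163 and 207 in KO. Its KO replicate 2 lay below WT replicate 1. Whether this list has a part in the difference of Fli1 or Mecom was not tested.

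Granulocyte markers summed to 9.02, 7.86 and 13.3 normalized CPM in WT and to 5.07, 6.19 and 215 in KO, and Mpo, the most abundant of the 10, was at 175 in KO replicate 3. Ltf and Mmp8 were at 0 in every library, and the groups overlapped for all 10. Myeloid genes outside the lists were named after their values were seen and from no fixed list, and they went both ways. Prtn3, a granule protease, was at 83.0, 141 and 86.5 in WT and 305, 307 and 355 in KO. Itgam was at 4.92, 0.737 and 12.1 in WT and 79.8, 79.2 and 73.7 in KO. Both lay higher in all KO libraries, with adjusted p of 0.0647 and 0.18 in edgeR. Cd68, Irf8 and Fcer1g also separated the groups upwards. Mpeg1 and Lgals3 lay lower in all KO libraries. Mpeg1 was at 4.92, 5.41 and 2.78 in WT and at 0 in every KO library. Lgals3 was at 9.02, 15.2 and 2.47 in WT and at 1.01, 0 and 0.405 in KO. Mpeg1 and Lgals3 thus passed the filter on low counts through WT alone. Itgam, at 0.737 in WT replicate 2, passed it only with the KO libraries. None of these genes passed the threshold. KO replicate 3 was the KO library nearest to WT for Mecom, Fli1 and Etv6, and the part of these transcripts in that, or in the differences of the 9 genes, was not tested.

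Monocyte and macrophage markers summed to 398, 530 and 546 normalized CPM in WT and to 421, 470 and 494 in KO, led by Lyz2, which made up most of the sum. Of the 8 genes 3 were tested, and their groups overlapped. The shares of 6.25% higher and 6.15% lower cover tested genes only. Among the untested genes 1 lay higher in all KO libraries and none lower. That gene, Adgre1, named after its values were seen, was at 0 in WT and at 0.405, 2.00 and 4.05 in KO. It was too low to be tested, with 2 counts in KO replicate 1, below the floor of 3. Erythroid markers summed to 27.3 to 67.7, led by Hbb-bt, with Slc4a1 at 0. B cell markers summed to 49.0 to 85.4, led by Cd79b, with Ms4a1 and Pax5 at 0, and T cell markers to 2.46 to 13.7, led by Lck, with Cd3d, Cd3e, Cd3g and Cd8a at 0. The groups overlapped for each of these sums.

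Skeletal muscle genes summed to 240, 168 and 423 normalized CPM in WT and to 8.51, 23.1 and 8.90 in KO. Myh3 was the most abundant. Of the 16 genes 13 were tested, and 14 of the 16 lay lower in all KO libraries, beside 6.15% of all genes tested. The 14 include Myh2 and Myh4, which were too low to be tested. Of the 16, 3 were among the 9 that passed the threshold, beside 0.0719% of all genes. These 3, Myh3, Acta1 and Actc1, were at or near 0 in every KO library and passed the filter on low counts through WT alone. So did Myh1, Myh8, Tnnc2, Myl1, Myog and Des, named after their values were seen and at 0 in every KO library. The count of 14 is therefore a description with no test. Leaving these genes, H19 and Igf2 out before scaling left the log2 fold change of Mecom at 0.61. The share of counts on Gm26917 and Gm42418 was 7.66, 10.5 and 18.1% for WT and 6.11, 6.14 and 12.0% for KO, and without both genes that of Mecom was 0.61 as well.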

How the data were processed

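RNA from sorted HSCs of 3 WT and 3 KO samples was sequenced. The deposited count table holds raw reads per gene. The deposited FPKM table holds the same reads divided by 1 length per gene and by the total of each column, to within 0.0703%. The submitters' processing notes name TopHat, HTSeq and the build mm10. Their versions, the annotation and the use of strand are not given in the sources used here. The labels name amplification with SMART-Seq v4 and the methods a TruSeq kit; neither describes molecular identifiers.

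The counts were tested with edgeR 4.0.16 under R 4.3.3 (filterByExpr, TMM, robust quasi-likelihood test), and p-values were adjusted by Benjamini-Hochberg over all 12513 genes tested at 0.05. Standard errors were derived from the F statistic, and 95% confidence intervals from its degrees of freedom. For single genes an exact two-sided permutation test was run on log2(CPM + 0.5). Replicates of a group differed by more than counting noise. Where several identifiers carried 1 symbol, that with most counts was used. Coordinates and exons are those of GENCODE M21 on GRCm38, the assembly that mm10 denotes, and promoters those of RefSeq.

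Alternatives were DESeq2 1.42.0, upper-quartile scaling, no filter and a filter at 10 counts in every sample, the replicate block, limma 3.58.1 on log2(FPKM + 1) of all genes and of those with a mean FPKM of 1 or more, on log2(FPKM + 0.1) of the latter, limma voom with sample weights, 2 sets of genes left out before scaling, replicate 3 left out of both groups, and each library left out in turn. The members, lists and tests were chosen with earlier results of these data known. Genes given with values are Med23, the members, genes of a related list past the threshold or, up to 3 per list, with the largest difference among those with a mean of at least 5 normalized CPM and no overlap, the most abundant marker of each list and those at 0, sex-linked genes, and for Mecom, Prdm16, Erg and Fli1 the 3 genes with the most similar pattern. Genes that overlap a member or were left out before scaling are given too, and any other gene given with values is marked as chosen after they were seen. Further genes are named without values. ATAC-seq and single-cell data were not analysed here.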

Additional observations from a re-analysis of the deposited data

How the results depend on the processing

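The count of 0 of the 9 genes past the threshold held under all 18 alternatives, with 0 to 2 of the 9 at an unadjusted p under 0.05 and a lowest adjusted p of 0.479, for Mecom in DESeq2. Of 162 log2 fold changes of these genes under the alternatives, 146 kept their direction. Mecom stayed positive (0.43 to 0.84), as did Fli1 (0.17 to 0.42) and Mycn (0.18 to 0.48), and Etv6 (-0.57 to -0.35) and Prdm16 (-0.54 to -0.09) stayed negative.

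Directions reversed as follows, and the cause was not tested. Erg was 0.03 in each of the 3 limma fits of FPKM (0.0276, 0.0276 and 0.0293), 0.0457 in limma voom and 0.13 without replicate 3 of both groups; Myct1 was 0.03 in the same 3 fits of FPKM (0.0325, 0.0325 and 0.0331). Mllt3 was -0.13 without replicate 3 of both groups. With each library left out in turn, Erg ranged from -0.29 to 0.24, Myct1 from -0.08 to 0.07 (-0.1111 without replicate 3 of both groups), Mllt3 from -0.01 to 0.22 and Hmga2 from -0.09 to 0.64. Erg was 0.24 without the library labelled WT replicate 3 and 0.12 without KO replicate 1, Myct1 0.0634 without WT replicate 1 and 0.0696 without KO replicate 1, Mllt3 -0.01 without the library labelled WT replicate 3 and -0.0028 without KO replicate 3, and Hmga2 -0.0909 without KO replicate 2.

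Over all genes, 9 passed with edgeR, 120 with DESeq2, 15 with limma on log2(FPKM + 1) with the filter, 0 with limma voom (948 at an unadjusted p under 0.05), and 5 to 11 with each library left out; the cause was not tested. Leaving out muscle genes, H19 and Igf2 gave 4, and that choice itself removes 4 of the 9. Of the genes in the related lists, DESeq2 called 1, Hoxa2, and every other alternative called 0. The replicate block gave 5 genes in all, 0 of the 9 genes and 0 of the related lists. Numbers were not taken to pair the samples, since not every correlation of deviations from the group means exceeded 0.1 for equal numbers (0.16, 0.03 and 0.16). Numbers 1 and 3 correlated best with their own number, whereas WT replicate 2 correlated no less with KO replicate 1 (0.03). Within numbers, KO was above WT in all 3 for Mecom, Hmga2 and Mycn, and below in all 3 for Prdm16 and Etv6. The share of all genes tested with 1 direction in all 3 numbers was not computed. The numbers were not taken as pairs, so these directions say nothing particular about the 9 genes.

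Depth limited Hmga2 most, at 33 to 137 counts. Intervals of the 9 genes were wide enough that most leave room for a difference in either direction. The small number of libraries and the unknown timing of poly(I:C) limit what a direction means.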
